A study of Mus musculus with 39 samples.

Results

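The comparison described here is that of the basolateral amygdala (BLA) with the hippocampus in naive APP/Tau mice, picked by the labels for tissue, genotype and behaviour: 5 BLA libraries and 5 hippocampal libraries, 10 of the 39 in the series. The mice were females aged 9 months that carried both a mutant human APP transgene (APPSw,Ind, J9 line) and a mutant human tau transgene (Tau P301S, PS19 line) on a C57BL/6 background, with CaMKIIα-Cre and RiboTag, and had no fear conditioning. Naive controls, also with CaMKIIα-Cre and RiboTag but without the 2 disease transgenes, gave 5 BLA and 5 hippocampal libraries. Trained APP/Tau mice, killed after cued fear conditioning, gave 4 of each. The APP transgene is driven by the PDGF-B promoter and the tau transgene by the mouse prion protein promoter, and both act mainly in neurons. The Cre and ribosome tag act in CaMKIIα neurons of the forebrain, but the sequenced RNA is the input fraction, that is, poly(A) RNA of the whole lysate with all its cell types. A library number shared by both regions was taken as 1 mouse, and mice are called replicates 1 to 5 below.

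As background, the BLA is the part of the amygdala where sensory input meets signals of threat or reward. Its principal cells are glutamatergic neurons close in kind to those of cortex, and it sends output to the central amygdala, whose GABAergic, peptide-rich neurons resemble those of the striatum. The hippocampus holds dentate granule cells and the pyramidal cells of fields CA3, CA2 and CA1, and serves spatial and contextual memory. In mice with amyloid and tau transgenes both regions can hold deposits, around which microglia and astrocytes change their gene expression.

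Total counts were 51.8 to 62.0 M in the BLA libraries and 94.2 to 120 M in the hippocampal libraries. BLA libraries were made from 10 ng of RNA out of 1 mm punches and hippocampal libraries from 50 ng out of whole dissected tissue, so region, dissection, RNA input, depth and table cannot be told apart. The first principal component of the 1000 most variable genes held 76.6% of the variance and separated the regions. Levels are given as CPM, that is, counts scaled to the size of each library. Differences are log2 fold changes of BLA over hippocampus, so that a positive value is higher in the BLA, followed by ± its standard error (SE), and a gene is called at an adjusted p under 0.05. In bulk tissue, fewer cells of a type and less RNA per cell cannot be told apart.

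Of 22805 genes tested, 9125 were called (40.0%), of which 4515 were higher in the BLA (19.8%) and 4610 lower (20.2%). With a log2 fold change of at least 1 in either direction, 3115 genes remained (13.7%), 1438 higher (6.31%) and 1677 lower (7.35%). The 5 BLA values and the 5 hippocampal values did not overlap for 6630 genes (29.1%). The median log2 fold change over all tested genes was -0.03. These values are the background for every count or median of list members below, and a list with about 1 in 5 members called in a direction is like the genes at large. Over 15902 genes with at least 1 CPM in both regions, the median SD of log2 CPM between mice was 0.155 in the BLA and 0.162 in the hippocampus, and the median absolute regional difference was 0.255.

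The deposited tables of the regions differed widely at some pseudogenes. Over all 39 libraries, 46 genes were above 1 CPM in every hippocampal library and at least 8 times lower in every BLA library, of which 38 are pseudogenes. Another 15 genes stood the other way, of which 14 are pseudogenes. For example, the pseudogene Rpl10-ps5 was at 18.4 to 29.4 CPM in the BLA and at 0.0748 to 0.319 CPM in the hippocampus, and Gapdh, a glycolytic enzyme with many pseudogenes, was at 20.9 to 52.8 CPM in the BLA and at 119 to 147 CPM in the hippocampus (both chosen after their values were seen). Genes with near-identical copies are uncertain, since table and region cannot be told apart. Not every such gene is marked where it is named below. At an adjusted p under 0.05, 44.2% of the pseudogenes tested and 43.6% of protein-coding genes were called. With a log2 fold change of at least 1 as well, the shares were 30.7% for pseudogenes, 15.3% for long non-coding RNAs and 10.8% for protein-coding genes.

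The labels were checked with marker genes first. Prox1, the transcription factor of dentate granule cells, was at 13.4, 16.4, 13.6, 13.8 and 17.7 CPM in the BLA libraries, against 82.7, 112, 106, 100.3 and 67.5 CPM in the hippocampal libraries (log2 fold change -2.64 ± 0.14, adjusted p = 1.29e-07). C1ql2, a synaptic protein secreted by the same cells, was at 3.47, 2.30, 2.98, 4.58 and 6.82 CPM in the BLA libraries, against 29.8, 73.4, 58.5, 108 and 20.6 CPM in the hippocampal libraries (log2 fold change -3.84 ± 0.46, adjusted p = 5.62e-05). Neither gene had overlapping regions. Rspo2, a Wnt co-activator that marks BLA projection neurons, was at 39, 5.88, 39.1, 62.1 and 34.8 CPM in the BLA libraries, against 20.02, 20.4, 18.7, 23.3 and 19.1 CPM in the hippocampal libraries. It was above every hippocampal value in 4 BLA libraries and lowest of all in BLA replicate 2, and it was not called (log2 fold change 0.83 ± 0.41, adjusted p = 0.125). Without that library the difference was 1.11 (adjusted p = 1.95e-04). Etv1, a transcription factor of deep cortical and some amygdala neurons, did not pass the test (log2 fold change -0.05 ± 0.21, adjusted p = 0.88). Without BLA replicate 2 its difference was 0.12 (adjusted p = 0.509). Wfs1, listed as a CA1 marker, was higher in the BLA, at 428, 382, 505, 491 and 496 CPM in the BLA libraries, against 84.4, 123, 120.1, 94.6 and 71.8 CPM in the hippocampal libraries (log2 fold change 2.22 ± 0.15, adjusted p = 6.74e-07). It separated the regions with no overlap, in the direction opposite to that of a CA1 marker.

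BLA replicate 2 stood apart from the other punches. The summed level of 9 markers of striatum and central amygdala was 2601 CPM in it, against 493 to 1013 CPM in the other BLA libraries and 114 to 191 CPM in the hippocampal libraries. Nr2f2, a transcription factor with high levels in amygdala neurons, was at 80.7, 18.2, 71.5, 104 and 90.7 CPM in the BLA libraries, against 28.1, 29.8, 28.8, 30.2 and 23.2 CPM in the hippocampal libraries. BLA replicate 2 was thus below all 5 hippocampal libraries for a gene that the other 4 punches held well above them. Cyp26b1, which degrades retinoic acid and is strong in BLA neurons, was at 220.1, 41.7, 219, 274 and 253 CPM in the BLA libraries, against 11.8, 13.4, 14.2, 16.5 and 19.1 CPM in the hippocampal libraries, with replicate 2 lowest of the BLA libraries. Values without this library are given for some results in which it stands out, but not for all.

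**Figure D1:**
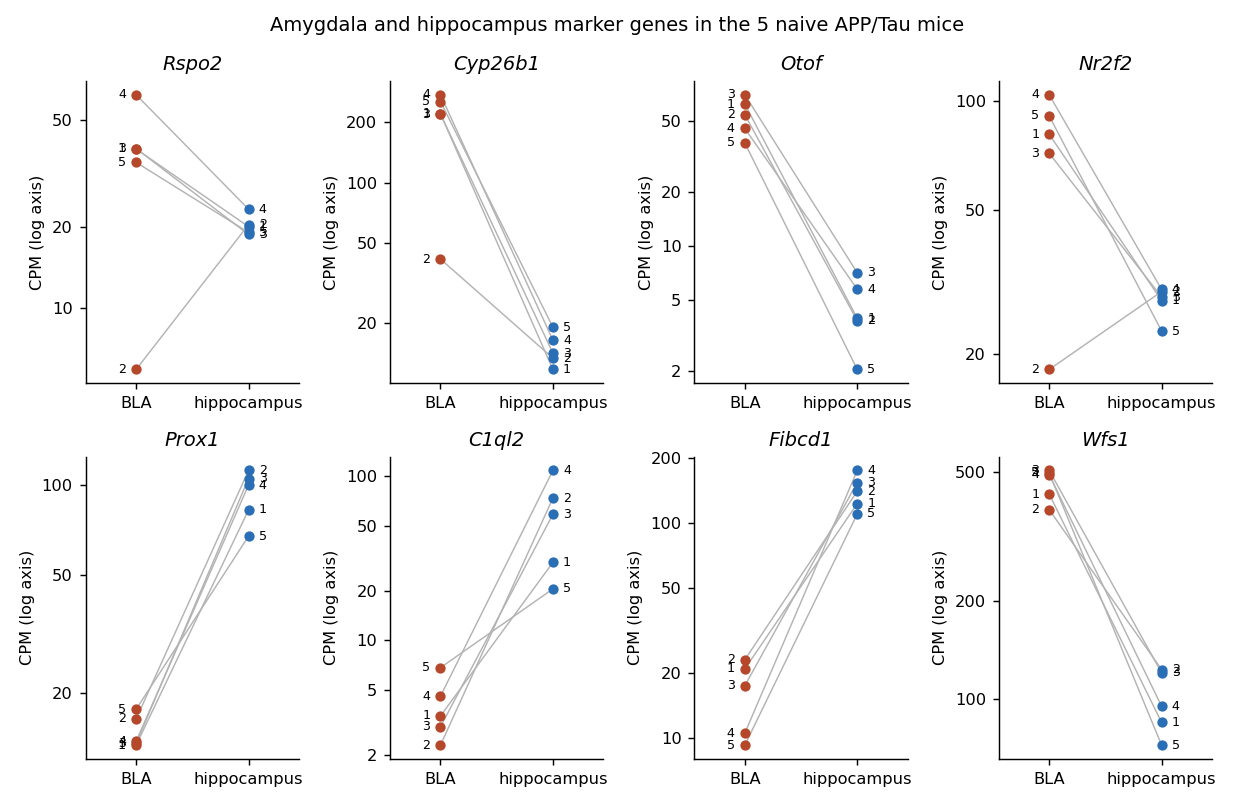
Level (CPM, log axis) of 8 marker genes in the BLA and the hippocampus of each naive APP/Tau mouse. Points are libraries, numbers are replicates and lines join the regions of a mouse. Prox1, C1ql2 and Fibcd1 were lower and Otof, Cyp26b1 and Wfs1 higher in the BLA of all 5 mice, while replicate 2 went the other way for Rspo2 and Nr2f2.

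**Figure D2:**
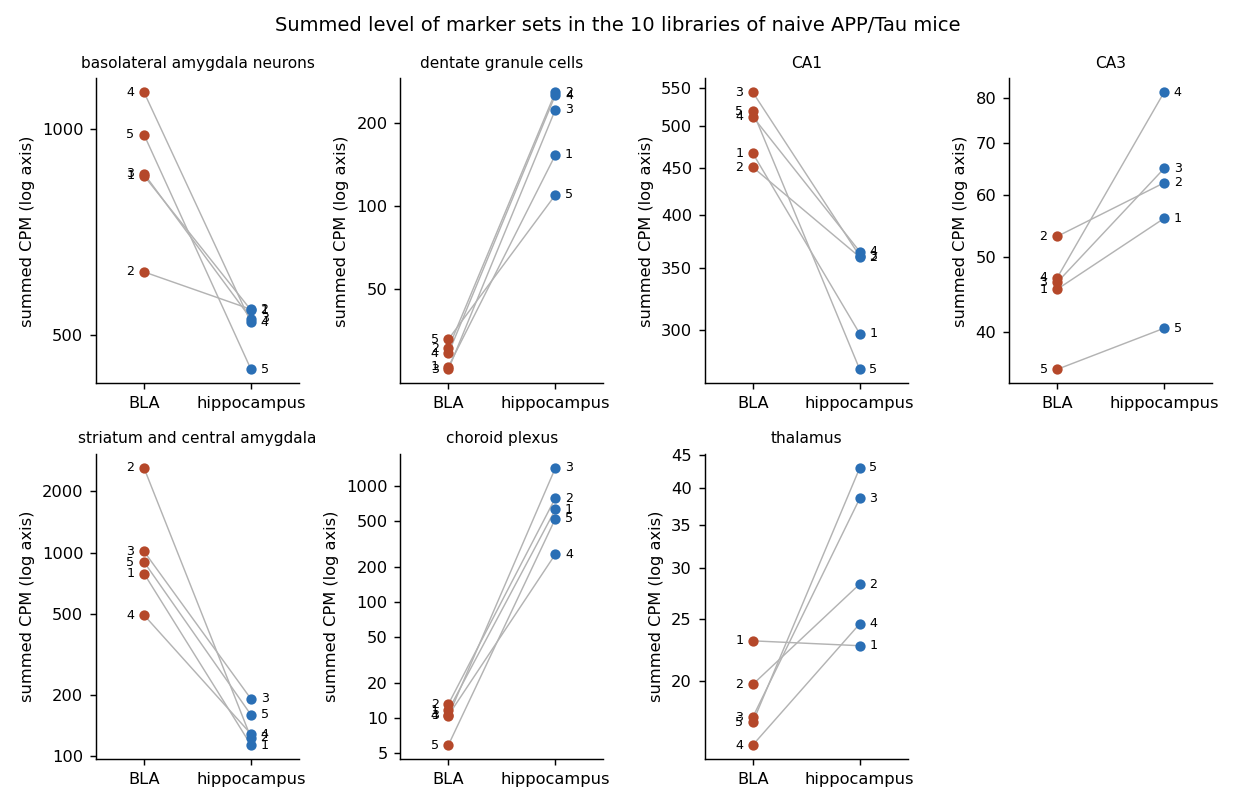
Summed CPM (log axis) of 7 marker sets per library, BLA left of hippocampus, with lines joining the regions of a mouse. BLA replicate 2 has the highest striatal and central amygdala sum, and every hippocampal library has a choroid plexus sum above 258 CPM, while every BLA library stays under 14 CPM. The CA1 sum, which includes Wfs1, is higher in every BLA library (451 to 544 CPM) than in the hippocampal libraries (272 to 365 CPM). The CA3 sums of the regions overlap.

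The BLA projection neuron list was mixed. Of 15 genes tested, 5 were higher and 4 lower, with a median of -0.05. Without BLA replicate 2, 6 were higher and 5 lower and the median was 0.12. Without hippocampal replicate 5 it was 0.05, so its sign turned in both cases. The strongest were Cyp26b1 (log2 fold change 3.75 ± 0.41, adjusted p = 2.76e-05; 4.01 without BLA replicate 2) and Otof, a calcium sensor of vesicle release known from hair cells. Otof was at 62.2, 54.1, 70.0, 45.4 and 37.7 CPM in the BLA libraries, against 3.94, 3.83, 7.09, 5.74 and 2.04 CPM in the hippocampal libraries (log2 fold change 3.57 ± 0.30, adjusted p = 3.75e-06), with no overlap. Lypd1, a membrane-anchored modulator of nicotinic receptors, averaged 344 ± 92.0 CPM in the BLA and 108 ± 17.2 CPM in the hippocampus (SD, n = 5 each; log2 fold change 1.67 ± 0.18, adjusted p = 2.33e-05). Nr2f2 and the LIM-domain factor Lmo3 were also called higher (1.38 ± 0.33 and 0.56 ± 0.09). Lower in the BLA were Dcn, a collagen-binding proteoglycan that is also a fibroblast gene (log2 fold change -2.67 ± 0.21, adjusted p = 2.29e-06), the guidance cue Sema3e (-0.78 ± 0.11), the corticofugal transcription factor Fezf2 (-1.48 ± 0.38) and the peptide gene Grp (-1.65 ± 0.53). The Grp call was lost without BLA replicate 1, BLA replicate 3, hippocampal replicate 1 or hippocampal replicate 4.

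Hippocampal cell lists were mostly lower in the BLA. Of 15 dentate granule cell genes, 10 were lower and 1 higher (median -1.48). Dsp, a desmosomal plaque protein found in granule cells, was at 0.429, 0.237, 0.274, 0.613 and 0 CPM in the BLA libraries, against 29.2, 51.3, 39.4, 26.6 and 13.8 CPM in the hippocampal libraries (log2 fold change -6.69 ± 0.54, adjusted p = 2.72e-06). Lct, the lactase gene, and Il16, a cytokine precursor, also fell (-6.04 ± 0.43 and -3.41 ± 0.21), as did Tdo2, which degrades tryptophan (-4.21 ± 0.47). Gsg1l, an AMPA receptor auxiliary subunit, was the member higher in the BLA (1.11 ± 0.27), with 136 CPM in BLA replicate 2 and 40.2 to 64.8 CPM in the other BLA libraries. Without that library it stood at 0.74.

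Of 9 CA1 genes, 7 were lower and only Wfs1 was higher (median -1.66). Fibcd1, a receptor that binds acetylated sugars, was at 20.9, 23.1, 17.5, 10.5 and 9.23 CPM in the BLA libraries, against 123, 140.5, 154, 175 and 110.0 CPM in the hippocampal libraries (log2 fold change -3.12 ± 0.25, adjusted p = 2.97e-06). The morphogen antagonist Lefty1 and the ciliary receptor Gpr161 were lower (-3.59 ± 0.28 and -1.66 ± 0.10). The POU factor Pou3f1 averaged 21.7 ± 13.8 CPM in the BLA and 91.6 ± 4.08 CPM in the hippocampus (SD, n = 5 each; log2 fold change -2.08 ± 0.32, adjusted p = 3.59e-04).

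Among 16 CA3 and CA2 genes, 10 were lower and 3 higher (median -0.60). Iyd, an iodide-salvaging enzyme, was close to 0 in the BLA, at 0.268, 0.102, 0.0588, 0.102 and 0 CPM in the BLA libraries, against 2.48, 4.25, 4.32, 5.12 and 2.71 CPM in the hippocampal libraries (log2 fold change -5.14 ± 0.53, adjusted p = 1.72e-05). Ntf3, a neurotrophin, and Homer3, a postsynaptic scaffold, also fell (-3.70 ± 0.31 and -2.05 ± 0.11; in the annotation used, 25.4% of the Homer3 exons overlap Ddx49). The 3 higher members were Cacng5, an AMPA receptor auxiliary subunit (1.54 ± 0.16), the secreted protein Coch (1.11 ± 0.29) and the monooxygenase Fmo1 (0.46 ± 0.14, a call lost in 2 of the 10 fits without a library). The Coch value leaned on BLA replicate 2, at 24.8 CPM against 9.34 to 10.8 CPM in the other punches, and was 0.74 without it.

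Transcription factors of the dorsal telencephalon, which pattern hippocampus and cortex, were lower in 13 of 18 cases and higher in 2 (median -1.05). Zbtb20, needed for hippocampal field identity, was at 64.0, 87.0, 69.0, 56.6 and 66.1 CPM in the BLA libraries, against 271, 377, 306, 296 and 282 CPM in the hippocampal libraries (log2 fold change -2.16 ± 0.12, adjusted p = 1.89e-07). Nfix was at 81.0, 90.9, 91.8, 92.8 and 125 CPM in the BLA libraries, against 317, 343, 301, 321 and 315 CPM in the hippocampal libraries (log2 fold change -1.73 ± 0.10, adjusted p = 2.77e-07), and the bHLH factor Tcf4 differed by -1.45 ± 0.11. All 3 genes were lower in the BLA of every mouse. Lhx9, a LIM-homeobox factor on both this list and the thalamic one, was at 0.226 to 0.823 CPM in the BLA libraries and at 8.85 to 29.3 CPM in the hippocampal libraries (log2 fold change -5.01 ± 0.38, adjusted p = 1.73e-06). Pax6 and Meis1, a homeobox factor of striatal and amygdala lineages, were higher (0.95 ± 0.16 and 2.69 ± 0.25).

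**Figure D3:**
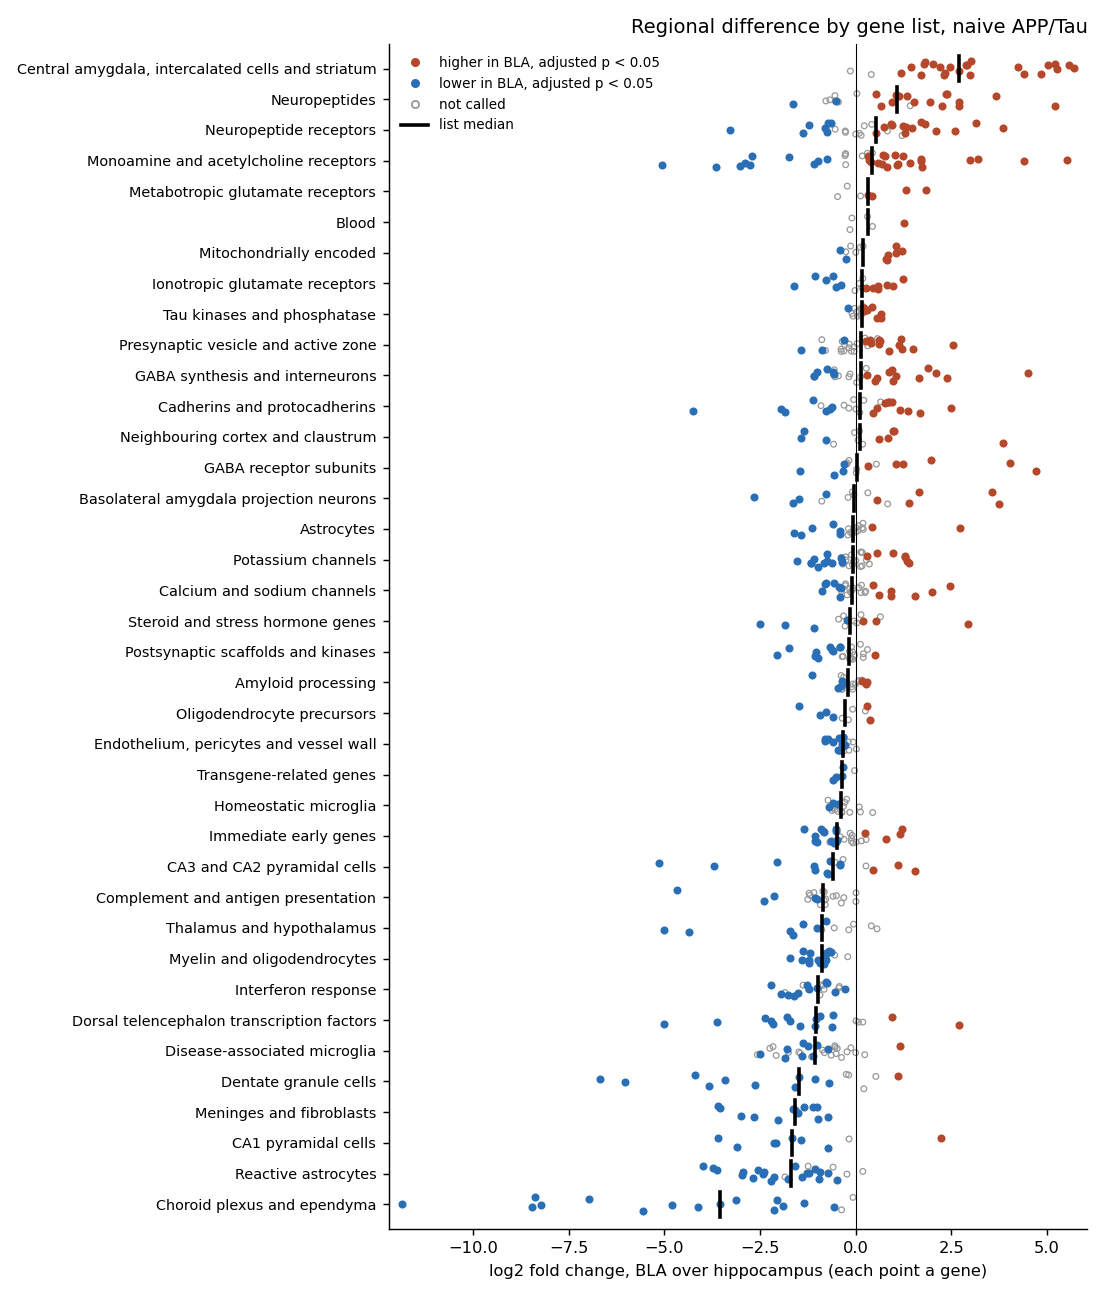
Log2 fold change (BLA over hippocampus) of every tested member of 38 gene lists, 1 row a list, ordered by the list median (black bar). Filled points were called at adjusted p < 0.05, and open points were not. The central amygdala and striatal list has the highest median (2.70) and the choroid plexus list the lowest (-3.56).

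The 10 largest increases among genes with at least 1 CPM on average, all in 5 of 5 mice, were in the homeobox genes Lhx8, Gbx1, Six3 and Isl1, the receptors Adora2a, Htr1d, Sstr5 and Calcr, the growth factor gene Fgf3 and the peptide gene Penk. Lhx8, a LIM-homeobox factor of cholinergic and globus pallidus neurons, was at 12.6, 11.3, 7.56, 2.50 and 2.72 CPM in the BLA libraries, against 0.0326, 0.0731, 0.0183, 0 and 0 CPM in the hippocampal libraries (log2 fold change 8.08 ± 0.75, adjusted p = 8.73e-06). Isl1, which specifies striatal and cholinergic neurons, was at 10.49, 6.16, 4.60, 6.29 and 3.12 CPM in the BLA libraries, against 0, 0.0183, 0.768, 0 and 0 CPM in the hippocampal libraries (log2 fold change 5.26 ± 1.07, adjusted p = 0.00223). Six3, a homeobox factor of striatal precursors, and Gbx1, a homeobox factor, had differences of 5.71 ± 0.64 and 7.48 ± 0.73. Fgf3 was at 0.970 to 3.47 CPM in the BLA and at 0 to 0.120 CPM in the hippocampus. Hippocampal replicate 3 was the highest hippocampal library for Isl1 and Six3.

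The receptors among these 10 were Adora2a, Htr1d, Sstr5 and Calcr. Adora2a, the adenosine receptor of indirect-pathway striatal neurons, was at 96.6, 280.5, 144, 40.8 and 90.7 CPM in the BLA libraries, against 0.978, 1.91, 6.81, 1.70 and 2.28 CPM in the hippocampal libraries (log2 fold change 5.58 ± 0.64, adjusted p = 4.10e-05; 5.09 without BLA replicate 2). Htr1d, an inhibitory serotonin receptor, was at 14.8, 21.3, 13.5, 8.90 and 8.68 CPM in the BLA libraries, against 0.0815, 0.320, 0.585, 0.217 and 0.256 CPM in the hippocampal libraries (log2 fold change 5.52 ± 0.44, adjusted p = 2.58e-06). Sstr5 and Calcr, receptors of somatostatin and of calcitonin and amylin, followed. Sstr5 was at 4.53 to 6.81 CPM in the BLA and at 0 to 0.292 CPM in the hippocampus, and Calcr at 1.69 to 4.61 CPM in the BLA and 0 to 0.311 CPM in the hippocampus. Within each of these 4 genes the regions did not overlap.

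Genes of the central amygdala, intercalated cells and striatum had the highest median of the 38 lists. Of 25 tested, 23 were higher and 0 lower (median 2.70); without BLA replicate 2, 22 were higher and 1 lower (median 2.05). Penk, the enkephalin precursor, was at 755, 1567, 1116, 561 and 716 CPM in the BLA libraries, against 16.5, 22.1, 38.1, 29.7 and 19.97 CPM in the hippocampal libraries (log2 fold change 5.22 ± 0.34, adjusted p = 5.31e-07; 4.96 without BLA replicate 2). Dlx6 and Dlx5, homeobox factors of GABAergic lineages, were higher with little spread (3.01 ± 0.15 and 1.81 ± 0.12), and for Dlx6 the BLA libraries were at 14.8 to 26.2 CPM, against 2.35 to 2.92 CPM in the hippocampus. Most of the list was highest in BLA replicate 2. Ppp1r1b, which encodes the dopamine-regulated phosphatase inhibitor DARPP-32, was at 294, 1201, 414, 174 and 349 CPM in the BLA libraries, against 55.4, 57.5, 78.4, 58.5 and 79.7 CPM in the hippocampal libraries (log2 fold change 2.88 ± 0.44, adjusted p = 3.31e-04; 2.22 without that library). Rgs9, a brake on G-protein signalling in striatal neurons, differed by 2.33 ± 0.37, or 1.76 without it. BLA replicate 2 was the highest punch for 22 of the 25 genes. Scn4b, a sodium channel beta subunit, was at 57.7, 642, 99.3, 15.7 and 55.5 CPM in the BLA libraries, against 30.2, 30.8, 35.4, 30.3 and 30.8 CPM in the hippocampal libraries. Its call (log2 fold change 2.47 ± 0.78, adjusted p = 0.0255) was lost without hippocampal replicate 1 or 2, without BLA replicate 2 (0.86, adjusted p = 0.0808) and with the mouse as a block (adjusted p = 0.142). Prkcd, a kinase that marks a class of central amygdala neurons, was not called (log2 fold change 0.41 ± 0.44, adjusted p = 0.487). The summed striatal and central amygdala markers were at 493 to 2601 CPM over the BLA libraries, against 114 to 191 CPM in the hippocampal libraries. How far striatum or central amygdala within the punches accounts for higher genes on this and other lists was not tested.

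GABAergic genes were split. Of 27 genes of GABA synthesis and interneurons, 12 were higher and 6 lower (median 0.13). Slc32a1, the vesicular GABA transporter, was at 379, 359.6, 328, 267 and 266 CPM in the BLA libraries, against 72.5, 68.7, 67.6, 74.9 and 89.5 CPM in the hippocampal libraries (log2 fold change 2.10 ± 0.12, adjusted p = 1.90e-07). Gad2, a GABA-synthesizing enzyme, was at 654, 602, 591, 503 and 433 CPM in the BLA libraries, against 172, 170.3, 168, 172 and 206 CPM in the hippocampal libraries (log2 fold change 1.65 ± 0.11, adjusted p = 6.46e-07). Neither gene had overlapping regions, and hippocampal replicate 5 had the highest hippocampal value for both. Chodl, a lectin of a rare somatostatin neuron class, differed by 4.49 ± 0.52. Lower were Htr3a, a serotonin-gated channel of interneurons (-1.09 ± 0.15), the receptor kinase Kit (-1.10 ± 0.16) and the RNA-editing homologue Adarb2 (-0.56 ± 0.13).

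Neuropeptide genes were higher in the BLA in 15 of 24 cases and lower in 2 (median 1.08). Whether these values come from the BLA itself or from striatum and central amygdala in the punches was not tested. Neuropeptides are released from large vesicles and tune circuits over longer times than GABA or glutamate. Beside Penk, Pdyn, the dynorphin precursor, was at 123, 279.8, 158, 96.0 and 142 CPM in the BLA libraries, against 10.2, 14.2, 15.1, 11.2 and 12.2 CPM in the hippocampal libraries (log2 fold change 3.67 ± 0.27, adjusted p = 1.15e-06). Nts, the neurotensin gene, was at 27.5, 28.4, 24.0, 29.9 and 36.3 CPM in the BLA libraries, against 8.88, 7.01, 7.51, 5.99 and 8.90 CPM in the hippocampal libraries (log2 fold change 1.93 ± 0.13, adjusted p = 8.43e-07). Both genes were separated by region, and BLA replicate 2 was highest for Pdyn but not for Nts. The lower genes were Grp, given above, and Chgb, a granin of large vesicles, at 485, 343, 541, 621 and 480.5 CPM in the BLA libraries, against 617, 839, 684, 866 and 525 CPM in the hippocampal libraries (log2 fold change -0.52 ± 0.17, adjusted p = 0.0273). The Chgb call was lost in 4 of the 10 fits that leave out a library.

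Many peptide genes are known to respond to cyclic AMP through the palindrome TGACGTCA, so their promoters were searched for it. It was found in 4 of 28 promoter windows of neuropeptide genes. The 4 windows belong to 4 of the 20 genes with a window, out of 25 on the list. Of the 32851 windows searched in all, 1.79% held it. The windows do not cover every gene, and genes without a window were not searched. The windows run from 250 bases before to 50 after the start, from RefSeq (build GRCm38.p6), and are read 5′ to 3′ on the gene's strand with the palindrome in capitals, which reads the same on both strands. The 4 are shown because they carry the exact motif, not for their values: Cartpt (chr13:99900634-99900933, minus strand, motif from base -112), Chgb (chr2:132781392-132781691, plus strand, from -72), Scg2 (chr1:79439977-79440276, minus strand, from -68) and Sst (chr16:23890795-23891094, minus strand, from -48).
Cartpt: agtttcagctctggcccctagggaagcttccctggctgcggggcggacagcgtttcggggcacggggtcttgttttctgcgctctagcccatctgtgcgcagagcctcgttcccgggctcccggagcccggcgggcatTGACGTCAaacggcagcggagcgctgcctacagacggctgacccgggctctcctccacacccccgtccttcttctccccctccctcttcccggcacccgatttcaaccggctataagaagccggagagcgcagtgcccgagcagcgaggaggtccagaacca
Chgb: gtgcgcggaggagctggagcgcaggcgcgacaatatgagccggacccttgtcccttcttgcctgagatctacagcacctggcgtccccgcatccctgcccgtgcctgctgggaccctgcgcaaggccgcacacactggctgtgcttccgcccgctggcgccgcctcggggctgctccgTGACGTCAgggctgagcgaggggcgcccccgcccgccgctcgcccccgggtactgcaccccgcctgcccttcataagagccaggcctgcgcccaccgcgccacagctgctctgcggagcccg
Scg2: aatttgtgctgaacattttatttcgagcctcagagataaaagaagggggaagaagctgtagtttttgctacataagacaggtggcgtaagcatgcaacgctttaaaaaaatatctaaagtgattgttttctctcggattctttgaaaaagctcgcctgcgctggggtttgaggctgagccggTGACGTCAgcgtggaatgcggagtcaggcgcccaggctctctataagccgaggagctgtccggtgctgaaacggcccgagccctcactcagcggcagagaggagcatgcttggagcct
Sst: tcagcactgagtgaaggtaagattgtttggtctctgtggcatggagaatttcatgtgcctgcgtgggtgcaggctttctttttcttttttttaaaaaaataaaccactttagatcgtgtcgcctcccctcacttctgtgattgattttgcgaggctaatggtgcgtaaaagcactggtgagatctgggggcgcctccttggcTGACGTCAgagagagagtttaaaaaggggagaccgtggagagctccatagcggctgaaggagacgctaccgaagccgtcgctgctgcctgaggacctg
A match is a description of letters and not evidence of binding. The 4 genes did not share a direction. Cartpt, the precursor of a feeding- and stress-linked peptide, was at 8.94, 10.4, 12.5, 8.23 and 14.6 CPM in the BLA libraries, against 0.880, 1.37, 4.35, 0.457 and 1.30 CPM in the hippocampal libraries (log2 fold change 2.71 ± 0.49, adjusted p = 9.96e-04). Sst, the somatostatin gene of a large interneuron class, was at 189, 355, 238, 225 and 339.7 CPM in the BLA libraries, against 143, 128, 114, 162 and 152 CPM in the hippocampal libraries (log2 fold change 0.94 ± 0.17, adjusted p = 9.90e-04). Scg2, a granin that also yields a peptide, averaged 598 ± 85.2 CPM in the BLA and 237 ± 33.6 CPM in the hippocampus (SD, n = 5 each; log2 fold change 1.33 ± 0.12, adjusted p = 6.60e-06). Chgb, given above, was lower in the BLA.

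Peptide receptor genes were higher in 14 of 31 cases and lower in 7 (median 0.52). The opioid receptors were all higher. Oprk1, the dynorphin receptor, was at 33.6, 27.6, 34.1, 33.2 and 23.4 CPM in the BLA libraries, against 1.92, 1.53, 2.74, 2.15 and 2.13 CPM in the hippocampal libraries (log2 fold change 3.86 ± 0.17, adjusted p = 2.37e-08). Oprm1, the mu receptor, was at 5.63, 4.50, 5.50, 4.73 and 4.995 CPM in the BLA libraries, against 1.33, 1.18, 1.15, 0.837 and 1.452 CPM in the hippocampal libraries (log2 fold change 2.09 ± 0.16, adjusted p = 2.15e-06). The delta receptor Oprd1 and the nociceptin receptor Oprl1 differed by 0.93 ± 0.13 and 0.94 ± 0.10. For all 4 the BLA values lay above every hippocampal value. The tachykinin receptors Tacr1 and Tacr3 were higher (3.15 ± 0.19 and 2.61 ± 0.39). Oxtr, the oxytocin receptor, was at 23.5, 16.9, 24.9, 14.9 and 18.5 CPM in the BLA libraries, against 6.86, 9.33, 8.97, 10.4 and 4.23 CPM in the hippocampal libraries (log2 fold change 1.31 ± 0.23, adjusted p = 7.48e-04). The cholecystokinin receptor Cckbr (1.30 ± 0.24), the neurotensin receptor Ntsr1 (1.24 ± 0.23), the galanin receptor Galr1 (1.82 ± 0.45), the orexin receptor Hcrtr1 (1.70 ± 0.35), the PACAP receptor Adcyap1r1 (0.73 ± 0.07) and the corticotropin-releasing hormone receptor Crhr1 (0.52 ± 0.16) were also called higher. The Crhr1 call was lost without BLA replicate 1.

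Receptors of a family did not always move alike. Among somatostatin receptors, Sstr2 was higher (1.47 ± 0.30), while Sstr3 and Sstr4 were lower (-0.64 ± 0.20, a call lost in 3 of the 10 fits without a library, and -1.21 ± 0.10), and Sstr1 was not called (0.10 ± 0.13). The orexin receptor Hcrtr2 was lower (-0.73 ± 0.19), opposite to Hcrtr1. The neuropeptide Y receptors Npy1r and Npy5r were lower (-0.74 ± 0.19 and -0.80 ± 0.21), and Npy2r was not called (-0.54 ± 0.26). Avpr1b, a vasopressin receptor of CA2, was at 0.0715, 0, 0.0392, 0.136 and 0 CPM in the BLA libraries, against 0.513, 0.594, 0.439, 0.370 and 0.548 CPM in the hippocampal libraries (log2 fold change -3.29 ± 0.65, adjusted p = 0.00191), and Rxfp1, a relaxin receptor, differed by -1.38 ± 0.16. The vasopressin receptor Avpr1a did not pass the test (log2 fold change 1.21 ± 0.46, adjusted p = 0.0527) and passed it with the mouse as a block (adjusted p = 0.0264).

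Monoamine and acetylcholine receptors were higher in 20 of 38 cases and lower in 10 (median 0.42). Dopamine receptors differed in sign. Drd2 was at 46.3, 161, 64.9, 22.6 and 39.2 CPM in the BLA libraries, against 2.27, 3.69, 4.43, 3.07 and 2.44 CPM in the hippocampal libraries (log2 fold change 4.39 ± 0.49, adjusted p = 3.49e-05; 3.76 without BLA replicate 2). Drd1 and Drd3 were higher as well (2.98 ± 0.42, or 2.36 without that library, and 3.20 ± 0.45). Drd5, a D1-type receptor, was at 2.68, 2.98, 1.57, 1.68 and 1.62 CPM in the BLA libraries, against 13.6, 16.4, 13.9, 16.3 and 11.46 CPM in the hippocampal libraries (log2 fold change -2.76 ± 0.20, adjusted p = 1.34e-06; in the annotation used, 48.6% of its exons overlap Gm26560). Serotonin receptors were also divided. Higher beside Htr1d were Htr1b (1.74 ± 0.20), Htr2c (1.70 ± 0.17), Htr1f (1.23 ± 0.18), Htr7 (0.76 ± 0.18), Htr5a (0.58 ± 0.12) and Htr6 (0.35 ± 0.11, a call lost in 1 of the 10 fits without a library). Lower were Htr5b (-3.66 ± 0.39), Htr1a (-0.98 ± 0.16), Htr4 (-0.75 ± 0.19) and Htr3a.

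Among adrenergic receptors, Adra1d was at 6.22, 5.16, 9.502, 10.1 and 11.7 CPM in the BLA libraries, against 55.7, 81.7, 70.3, 73.5 and 34.5 CPM in the hippocampal libraries (log2 fold change -2.89 ± 0.27, adjusted p = 8.73e-06), while Adra1a rose (1.02 ± 0.11), as did Adra2c, Adra2a and Adrb1 (0.83 ± 0.21, 0.68 ± 0.16 and 0.40 ± 0.09). Muscarinic Chrm3 was lower (log2 fold change -1.75 ± 0.16, adjusted p = 6.60e-06), and Chrm5, Chrm4 and Chrm2 were higher (1.72 ± 0.27, 1.08 ± 0.12 and 0.71 ± 0.14). The nicotinic subunits Chrna5, Chrnb3 and Chrna3 were lower (-3.04 ± 0.31, -5.05 ± 0.52 and -2.71 ± 0.52). Chrnb3 was at 0 to 0.107 CPM in the BLA and at 0.881 to 2.66 CPM in the hippocampus. The histamine receptors Hrh3, an autoreceptor that also sits on other neurons, and Hrh1 were higher (1.43 ± 0.08 and 1.10 ± 0.11).

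GABA receptor subunits did not share a direction, with 6 of 16 higher and 4 lower (median 0.02). Gabra5, an alpha subunit of extrasynaptic receptors in hippocampal pyramidal cells, was at 66.4, 51.7, 66.2, 61.8 and 67.7 CPM in the BLA libraries, against 165, 198, 193, 188 and 111 CPM in the hippocampal libraries (log2 fold change -1.45 ± 0.14, adjusted p = 1.50e-05). Gabrb2, a beta subunit, was lower by a smaller amount (-0.33 ± 0.08). Gabrg1 was at 119, 71.0, 102, 95.1 and 72.7 CPM in the BLA libraries, against 20.2, 22.1, 28.1, 21.1 and 27.0 CPM in the hippocampal libraries (log2 fold change 1.96 ± 0.15, adjusted p = 2.28e-06). Gabra3 and Gabrg3 were higher (1.24 ± 0.16 and 1.04 ± 0.10), as were the rare subunits Gabrq and Gabre (4.03 ± 0.63 and 4.73 ± 0.75). Gabrq was lowest among the punches in replicate 2, at 7.08 CPM, and that was above the highest hippocampal value of 3.28 CPM.

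Ionotropic glutamate receptors were called higher in 7 and lower in 6 of 17 cases (median 0.16). Grin2a, an NMDA receptor subunit, was at 109.5, 116, 126, 126 and 109 CPM in the BLA libraries, against 332, 454, 389.8, 374 and 245 CPM in the hippocampal libraries (log2 fold change -1.61 ± 0.14, adjusted p = 4.04e-06). Grin2b was lower too (-0.79 ± 0.10), while Grin3a and Grin2d were higher (0.81 ± 0.15 and 0.57 ± 0.13). The AMPA subunits Gria1 and Gria2 were lower (-0.59 ± 0.13 and -0.38 ± 0.10) and Gria4 was higher (0.45 ± 0.07). Grik3, a kainate subunit, was at 183, 163, 162, 171 and 174 CPM in the BLA libraries, against 84.6, 66.2, 63.6, 62.0 and 83.5 CPM in the hippocampal libraries (log2 fold change 1.24 ± 0.10, adjusted p = 2.14e-06), opposite to Grik4, a subunit rich in CA3 (-1.08 ± 0.21). The delta subunit Grid1 was higher (0.57 ± 0.09). Of 7 metabotropic receptors, 4 were higher and 0 lower. Those higher were Grm8 (1.83 ± 0.20), Grm4 (1.32 ± 0.18), Grm7 (0.42 ± 0.14) and Grm3 (0.33 ± 0.12), all coupled to inhibition of adenylyl cyclase. The call of Grm7 was lost in 4 and that of Grm3 in 6 of the 10 fits that leave out a library.

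**Figure D4:**
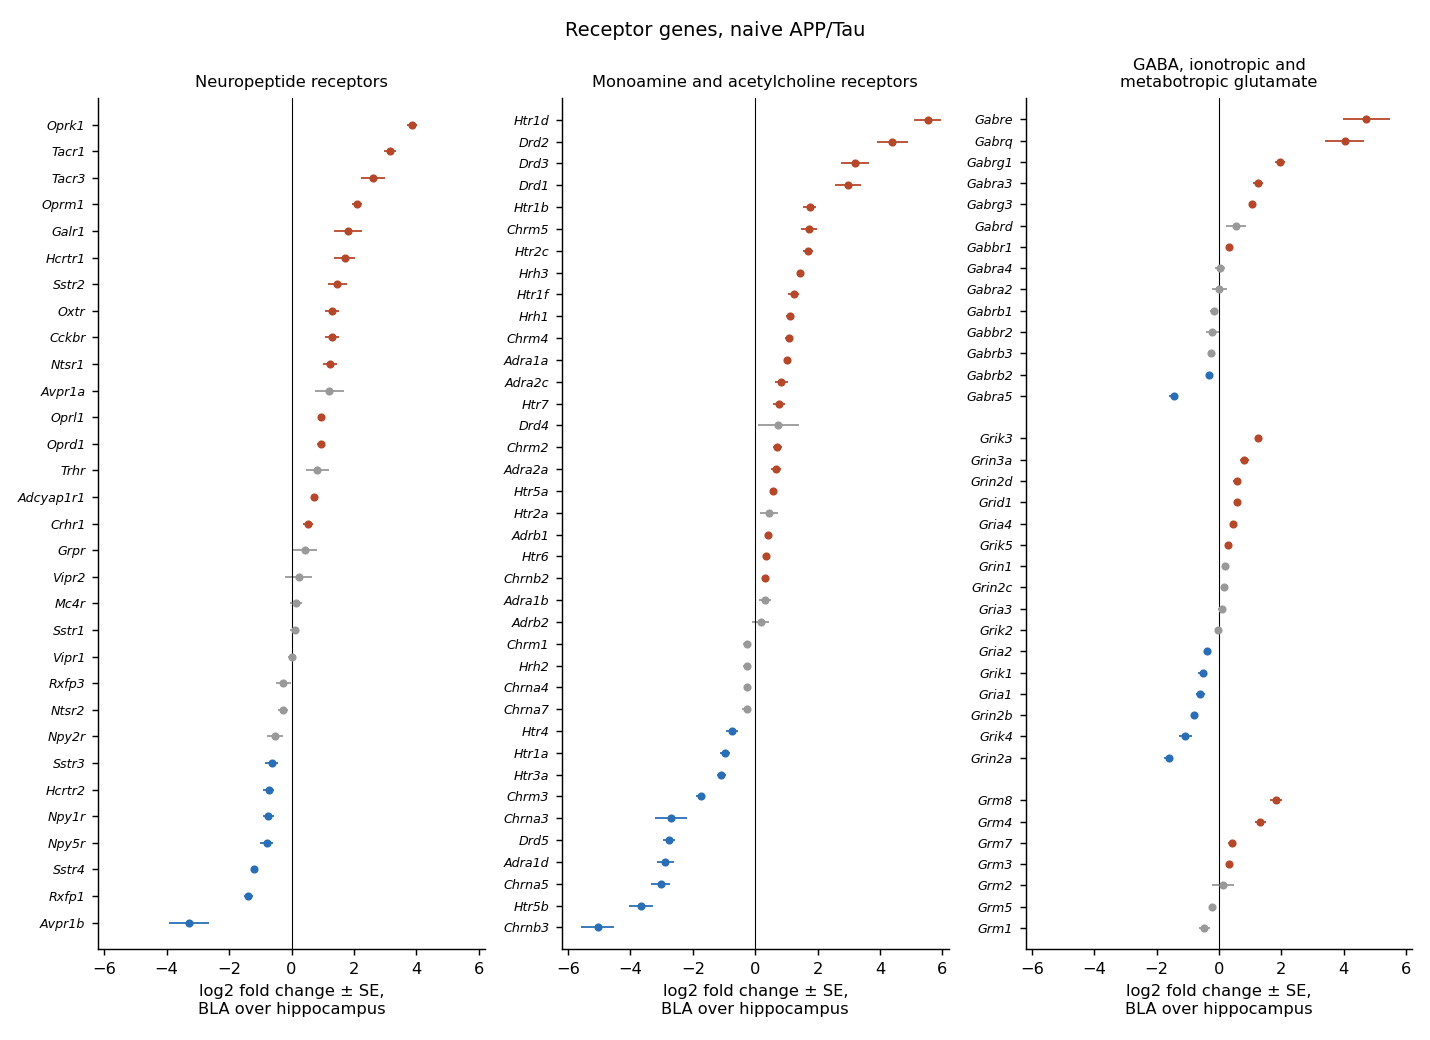
Log2 fold change ± SE (BLA over hippocampus) of 106 of the 109 receptor genes tested, by family and ordered within each. Red was called higher, blue called lower and grey not called at adjusted p < 0.05. Families split in both directions, for example Drd2 (4.39) and Drd5 (-2.76), or Gabrg1 (1.96) and Gabra5 (-1.45).

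Steroid and stress hormone genes were lower in 4 of 14 cases and higher in 3 (median -0.14). Nr3c2, the mineralocorticoid receptor, was at 54.2, 65.5, 55.3, 48.0 and 52.6 CPM in the BLA libraries, against 191, 232, 221, 214 and 142 CPM in the hippocampal libraries (log2 fold change -1.86 ± 0.13, adjusted p = 8.41e-07). Hsd11b1, which regenerates active glucocorticoid, was at 3.43, 2.91, 4.13, 2.77 and 3.52 CPM in the BLA libraries, against 20.1, 19.7, 19.7, 18.7 and 17.1 CPM in the hippocampal libraries (log2 fold change -2.51 ± 0.12, adjusted p = 4.20e-08). Both were lower in the BLA of all 5 mice with no overlap. Esr2, an estrogen receptor, was at 1.61, 0.339, 1.59, 2.50 and 1.07 CPM in the BLA libraries, against 0.0652, 0.210, 0.219, 0.239 and 0.201 CPM in the hippocampal libraries (log2 fold change 2.92 ± 0.49, adjusted p = 6.46e-04). Cyp7b1, which hydroxylates neurosteroids, was lower (-1.08 ± 0.09), and Pgr, the progesterone receptor, was slightly higher (0.18 ± 0.06), a call lost in 6 of the 10 fits without a library.

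Of 35 potassium channel genes, 7 were higher and 11 lower (median -0.08). Kcnj6 and Kcnj3, subunits of the inward rectifiers that G proteins open, were lower (-1.53 ± 0.19 and -1.08 ± 0.16). Kcnc2, a channel for fast firing, was lower as well (-0.76 ± 0.10), as was the calcium-gated Kcnn2 (-0.98 ± 0.12). Kcnt1, gated by sodium, was at 99.2, 133, 96.5, 107 and 89.4 CPM in the BLA libraries, against 56.6, 36.8, 46.6, 37.3 and 39.2 CPM in the hippocampal libraries (log2 fold change 1.28 ± 0.14, adjusted p = 2.50e-05). The silent subunit Kcng1 (1.40 ± 0.24), the ether-a-go-go channels Kcnh5 and Kcnh3 (1.28 ± 0.16 and 0.97 ± 0.14) and the pacemaker channel Hcn4 (1.34 ± 0.20) were higher. The calls of Kcnip1 and Kcnma1 were lost with the mouse as a block (adjusted p = 0.0621 and 0.0605), and each was also lost in 8 of the 10 fits without a library.

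Calcium and sodium channel genes had 7 higher and 7 lower of 27 (median -0.09), with 11 lower without hippocampal replicate 5. Cacna2d2, an auxiliary calcium channel subunit, was at 152, 117, 128, 109.6 and 93.2 CPM in the BLA libraries, against 30.2, 27.3, 36.4, 25.1 and 32.1 CPM in the hippocampal libraries (log2 fold change 1.99 ± 0.14, adjusted p = 6.85e-07). The T-type channel Cacna1g was higher (0.93 ± 0.19) and the sodium channels Scn8a and Scn3b were lower (-0.57 ± 0.11 and -0.80 ± 0.11), as was the ryanodine receptor Ryr2 (-0.87 ± 0.21).

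Presynaptic genes were higher in 12 of 32 cases and lower in 3 (median 0.14); with the mouse as a block 8 were lower, and without hippocampal replicate 5 7. Doc2a and Syt5, calcium sensors of vesicle release, were higher (1.51 ± 0.16 and 1.12 ± 0.11; 39.4% of the Doc2a exons overlap Ino80e), and so was the vesicle glycoprotein Sv2a (0.61 ± 0.06). The postsynaptic list went the other way, with 1 higher and 10 lower of 25 (median -0.16). Prkca, a calcium-dependent kinase, was at 77.6, 128, 83.2, 83.6 and 92.9 CPM in the BLA libraries, against 284, 379, 315, 355 and 231 CPM in the hippocampal libraries (log2 fold change -1.75 ± 0.16, adjusted p = 7.43e-06). Homer2 was lower (-0.98 ± 0.11) and Camk4, a nuclear calcium-dependent kinase, was higher (0.50 ± 0.13).

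Cadherins, which sort neurons by adhesion, held 10 higher and 7 lower of 25 (median 0.10). Cdh4 was at 62.6, 57.9, 60.8, 63.5 and 52.7 CPM in the BLA libraries, against 10.8, 8.86, 12.1, 10.1 and 11.2 CPM in the hippocampal libraries (log2 fold change 2.49 ± 0.09, adjusted p = 9.41e-09). Cdh22 and Pcdh10 were higher too (1.67 ± 0.08 and 1.16 ± 0.09), and Cdh12 and Cdh11 were lower (-1.84 ± 0.12 and -1.11 ± 0.11).

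Activity-regulated genes were lower in 13 of 29 cases and higher in 4 (median -0.49, or -0.32 without hippocampal replicate 5). Arc, an immediate early gene of synapses, was at 50.6, 47.4, 43.5, 50.3 and 62.0 CPM in the BLA libraries, against 126, 117, 73.8, 91.9 and 123 CPM in the hippocampal libraries (log2 fold change -1.06 ± 0.15, adjusted p = 1.50e-04). Jun was lower (-1.07 ± 0.19), with the highest BLA value in replicate 5. Fosb was at 14.6, 12.3, 18.2, 16.4 and 25.9 CPM in the BLA libraries, against 8.87, 7.07, 5.83, 6.09 and 9.84 CPM in the hippocampal libraries (log2 fold change 1.21 ± 0.21, adjusted p = 6.80e-04), and Nptx2, a secreted pentraxin that gathers AMPA receptors, was higher (1.17 ± 0.20).

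App, the amyloid precursor gene, was at 2040.0, 1776, 2089, 2216 and 1945 CPM in the BLA libraries, against 2524, 2525, 2684, 2648 and 2379 CPM in the hippocampal libraries (log2 fold change -0.34 ± 0.07, adjusted p = 0.00323). Prnp was at 1427, 1105, 1431, 1573 and 1565 CPM in the BLA libraries, against 1915, 2258, 1977, 2115 and 1863 CPM in the hippocampal libraries (log2 fold change -0.51 ± 0.10, adjusted p = 0.00174), and Mapt did not pass the test (log2 fold change -0.03 ± 0.07, adjusted p = 0.752). App and Prnp did not overlap between regions. Prnp is the mouse gene whose promoter drives the tau transgene. The tables hold no rows of their own for human APP or tau, and reads of transgene origin cannot be told apart from those of the mouse genes. Of 20 genes of amyloid processing, 3 were higher and 6 lower (median -0.19), with the App relatives Aplp1 and Aplp2 higher (0.30 ± 0.06 and 0.28 ± 0.06), and the sorting receptor Sorl1 and the endocytic adaptor Picalm lower (-0.36 ± 0.07 and -0.47 ± 0.07). The call of Bace1, the beta-secretase (0.18 ± 0.06), was lost in 9 of the 10 fits without a library and with the mouse as a block (adjusted p = 0.0658). Of 19 genes of tau kinases and phosphatase, 7 were higher and 1 lower (median 0.15). Cdk5r1, the activator of the tau kinase Cdk5, was at 361, 396, 380.1, 376 and 364 CPM in the BLA libraries, against 224, 256, 237, 271 and 202 CPM in the hippocampal libraries (log2 fold change 0.66 ± 0.08, adjusted p = 5.31e-05), and Cdk5 and the microtubule kinase Mark1 were higher too (0.43 ± 0.05 and 0.65 ± 0.07).

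Reactive astrocyte genes were lower in 21 of 26 cases and higher in 0 (median -1.68). Gfap, the astrocyte filament, was at 111, 294, 51.4, 98.8 and 691 CPM in the BLA libraries, against 1603, 1323, 908, 1011 and 4937 CPM in the hippocampal libraries (log2 fold change -2.97 ± 0.73, adjusted p = 0.00667). Replicate 5 was highest in both regions, yet its BLA value lay below all 5 hippocampal values. Serping1, a complement inhibitor, was at 2.25, 1.74, 1.82, 2.09 and 1.84 CPM in the BLA libraries, against 6.65, 6.82, 8.56, 5.39 and 17.6 CPM in the hippocampal libraries (log2 fold change -2.21 ± 0.30, adjusted p = 1.29e-04), and Ptx3 and Cp, a pentraxin and the ferroxidase ceruloplasmin, were also lower (-2.95 ± 0.42 and -1.22 ± 0.17). Hippocampal replicate 5 held the highest hippocampal value for 25 of the 26 genes, and without it 19 were lower (median -1.16).

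Disease-associated microglia genes were lower in 9 of 30 cases and higher in 1 (median -1.06). The number lower was 21 with the mouse as a block, 17 without BLA replicate 5 and 16 without hippocampal replicate 4. Without hippocampal replicate 5, 7 were lower and 2 higher (median -0.62). Cst7, a cystatin of plaque-associated microglia, was at 0.786, 0.880, 0.196, 0.204 and 5.03 CPM in the BLA libraries, against 5.82, 5.04, 1.96, 0.402 and 20.7 CPM in the hippocampal libraries. It was lower in the BLA of all 5 mice and did not pass the test (log2 fold change -2.24 ± 1.01, adjusted p = 0.0979); with the mouse as a block it did (-2.40, adjusted p = 2.26e-04). Replicate 5 was the highest library of its region for 24 of these 30 genes in the BLA and for 28 in the hippocampus. Igf1 and the microglial growth factor Csf1 were lower (-1.38 ± 0.26 and -1.11 ± 0.22), as was Fth1, a ferritin subunit (-0.71 ± 0.12). Timp2, a metalloprotease inhibitor, was the member higher in the BLA (log2 fold change 1.15 ± 0.12, adjusted p = 1.85e-05).

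Homeostatic microglia genes were called lower in 3 of 18 cases and higher in 0 (median -0.40), and lower in 6 with the block. Only 1 was lower without hippocampal replicate 5 (median -0.14), as without BLA replicate 1, 3, 4 or 5. P2ry12, the purinergic receptor of resting microglia, was at 31.5, 34.9, 34.4, 34.7 and 34.9 CPM in the BLA libraries, against 47.9, 45.8, 48.9, 50.2 and 65.2 CPM in the hippocampal libraries (log2 fold change -0.60 ± 0.09, adjusted p = 3.20e-04). Complement and antigen presentation genes were lower in 5 of 21 cases and higher in 0 (median -0.86), and lower in 15 with the block, 9 without BLA replicate 2 and 8 without hippocampal replicate 4. Without hippocampal replicate 5, 5 were lower (median -0.29). C3, the central complement component, was at 0.393, 0.406, 0.549, 0.0681 and 1.52 CPM in the BLA libraries, against 4.25, 3.12, 3.35, 2.13 and 62.8 CPM in the hippocampal libraries (log2 fold change -4.67 ± 1.13, adjusted p = 0.00625). C4b was lower too (-2.39 ± 0.58), and both were highest in hippocampal replicate 5. Interferon response genes were lower in 12 of 22 cases and higher in 0 (median -0.98), and lower in 19 with the block. Without hippocampal replicate 5, 10 were lower (median -0.56). Among those lower with all 10 libraries were the GTPase Gbp2 (-2.20 ± 0.49), Xaf1 (-1.27 ± 0.23) and Ifi27 (-1.02 ± 0.18).

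General astrocyte genes had 2 higher and 6 lower of 20 (median -0.07). Hippocampal replicate 5 was the highest hippocampal library for 15 of the 20. Without it 6 were higher and 6 lower, and the median turned to 0.06. Aqp4, the water channel of astrocyte endfeet, was at 70.3, 101, 74.5, 70.7 and 113 CPM in the BLA libraries, against 217, 207, 196, 180.3 and 524 CPM in the hippocampal libraries (log2 fold change -1.63 ± 0.29, adjusted p = 9.14e-04), and the gap junction gene Gjb6 was lower (-1.15 ± 0.16). Unc13c was at 132, 204, 114, 90.7 and 63.6 CPM in the BLA libraries, against 16.5, 17.6, 24.8, 21.7 and 10.4 CPM in the hippocampal libraries (log2 fold change 2.73 ± 0.31, adjusted p = 3.53e-05), higher in the BLA with no overlap. Myelin genes were lower in 18 of 20 cases and higher in 0 (median -0.89). Ermn, a cytoskeletal protein of myelinating cells, was at 57.1, 75.0, 53.8, 38.98 and 45.6 CPM in the BLA libraries, against 135, 94.1, 106, 95.7 and 204 CPM in the hippocampal libraries (log2 fold change -1.23 ± 0.23, adjusted p = 0.00127), and the paranodal link protein Hapln2 differed by -0.93 ± 0.17. BLA replicate 2 was the highest punch for all 20 myelin genes, and hippocampal replicate 5 the highest hippocampal library for 19. The myelin median was -1.09 without BLA replicate 2 and -0.655 without hippocampal replicate 5. Precursor cell genes were divided, with Pdgfra higher (0.38 ± 0.09) and Enpp6, a gene of newly formed oligodendrocytes, lower (-1.49 ± 0.21), and 2 higher and 4 lower of 10 in all. Vessel genes were lower in 11 of 20 cases and higher in 0 (median -0.34), by small amounts such as -0.81 ± 0.08 for the pericyte gene Rgs5.

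Markers of tissue that borders the hippocampus were higher in its libraries. Choroid plexus and ependyma genes were lower in the BLA in 15 of 17 cases and higher in 0 (median -3.56). Ttr, the thyroxine carrier secreted by choroid plexus, was at 0.0715, 0.136, 0.157, 0.544 and 0 CPM in the BLA libraries, against 584, 733, 1347, 226 and 488 CPM in the hippocampal libraries (log2 fold change -11.85 ± 0.72, adjusted p = 2.86e-07). The summed level of the 3 choroid plexus markers was 5.85 to 13.2 CPM in the BLA and 259 to 1430 CPM in the hippocampus. Of the 10 largest decreases, Ttr, Folr1, Calml4 and Otx2 are on this list. Folr1 (a folate receptor), Calml4 (a calmodulin-like protein), Rtl3 (a retrotransposon-derived gene) and Cldn2 (a tight junction protein) had 4, 2, 2 and 4 counts in all over the 5 BLA libraries, so no fold is given for them. Otx2, a homeobox factor, differed by -6.97 ± 0.66, or -7.90 without BLA replicate 2, with 10 counts over the BLA libraries. Ecrg4, Myoc and Lrrc17, genes of secreted proteins, were close to 0 in the BLA. Ecrg4 was at 0 to 0.0847 CPM in the BLA and 4.11 to 15.96 CPM in the hippocampus (-7.54 ± 0.50), Myoc at 0.0323 to 0.196 CPM in the BLA and 9.64 to 24.96 CPM in the hippocampus (-7.12 ± 0.42), and Lrrc17 at 0 to 0.0851 CPM in the BLA and 7.57 to 12.9 CPM in the hippocampus (-7.99 ± 0.43). Pla2g2f, a secreted phospholipase, was at 0 to 0.0647 CPM in the BLA and at 0.767 to 3.76 CPM in the hippocampus. How far choroid plexus accounts for decreases outside this list was not tested.

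Meningeal and fibroblast genes were lower in 13 of 13 cases (median -1.58), among them Lum, a collagen-binding proteoglycan, at 0.822, 0.339, 0.549, 0.476 and 0.5497 CPM in the BLA libraries, against 5.67, 6.89, 8.01, 6.07 and 5.47 CPM in the hippocampal libraries (log2 fold change -3.55 ± 0.22, adjusted p = 3.75e-07). Thalamic and hypothalamic genes were lower in 7 of 13 cases and higher in 0 (median -0.89), among them Tcf7l2 (-1.37 ± 0.25) and Zic1 (-1.64 ± 0.26). Genes of neighbouring cortex and claustrum had 5 higher and 3 lower of 13 (median 0.10), with Gnb4 and Cux2 higher (0.98 ± 0.11 and 0.84 ± 0.12) and Nr4a2 lower (-1.36 ± 0.24). Among blood genes 1 of 5 was called higher, Hba-a2 (1.26 ± 0.45), a globin with a near-identical copy, and the call was lost in 7 of the 10 fits without a library. Of 13 mitochondrially encoded genes 6 were higher and 2 lower. COX2 and COX3 were higher (1.21 ± 0.09 and 1.06 ± 0.09) and ND2 was lower (-0.40 ± 0.13, a call lost in 5 of the 10 fits without a library), but such genes have nuclear copies and are uncertain here.

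The next question was whether the regional difference in naive APP/Tau mice was other than that in naive controls. In controls on their own, 10915 of 22797 genes were called (47.9%). Both libraries of control replicate 1 stood apart. In its hippocampal library the top 10 genes held 13.2% of counts, against 4.86 to 5.32% in the other naive control hippocampal libraries. Its BLA library had 26442 genes detected, against 28180 to 28692 in the other naive control BLA libraries. Of 24530 genes tested for the interaction, that is, for a change of the regional difference with genotype, 1 was called (0.00408%), App, and 1984 had an unadjusted p under 0.05 (8.09%). On a scale set over these 20 libraries, App was at 1993, 1726, 2044, 2159 and 1889 CPM in the BLA of APP/Tau mice and at 2495, 2473, 2638, 2577 and 2354 CPM in their hippocampus. In controls it was at 2095, 2225, 2039, 2171 and 2381 CPM in the BLA and at 1862, 1668, 1769, 1816 and 1916 CPM in the hippocampus. The BLA was thus below the hippocampus in every APP/Tau mouse and above it in controls, with regional differences of -0.34 ± 0.07 in APP/Tau mice and 0.28 ± 0.06 in controls, and an interaction of -0.63 ± 0.09 (adjusted p = 0.0177). Over the fits that leave out 1 of the 20 libraries its adjusted p ran from 0.00952 to 0.0762, and 10 of the 20 fits missed the threshold.

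The other 4 genes with the smallest p did not pass. Xkr6, a member of the XK-related membrane protein family, was at 21.0 ± 1.64 CPM in the BLA and 16.8 ± 1.81 CPM in the hippocampus of APP/Tau mice, and at 16.9 ± 2.10 and 24.1 ± 2.76 CPM in the BLA and hippocampus of controls (SD, n = 5 each; interaction 0.83 ± 0.14, adjusted p = 0.0591). Prn had an interaction of -0.72 ± 0.12 (adjusted p = 0.0591), with 92.7 ± 12.2 and 160.0 ± 17.8 CPM in the BLA and hippocampus of APP/Tau mice and 54.5 ± 2.58 and 57.2 ± 4.43 CPM in those of controls (SD, n = 5 each). Its exons overlap those of Prnd by 92.6% in the annotation used, and Prnp, at the same locus, had an interaction of -0.63 ± 0.12 (adjusted p = 0.107). Il1r1, the interleukin 1 receptor, had an interaction of 1.18 ± 0.21 (adjusted p = 0.0751), with regional differences of -2.15 ± 0.16 in APP/Tau mice and -3.33 ± 0.14 in controls. Smoc1, a matrix protein, had an interaction of -0.65 ± 0.12 (adjusted p = 0.107). With the mouse as a block 3 genes were called, App, Il1r1 and Rprm (a cell cycle inhibitor, named after its value was seen; -1.24, adjusted p = 6.16e-04), and with DESeq2 48 genes.

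**Figure D5:**
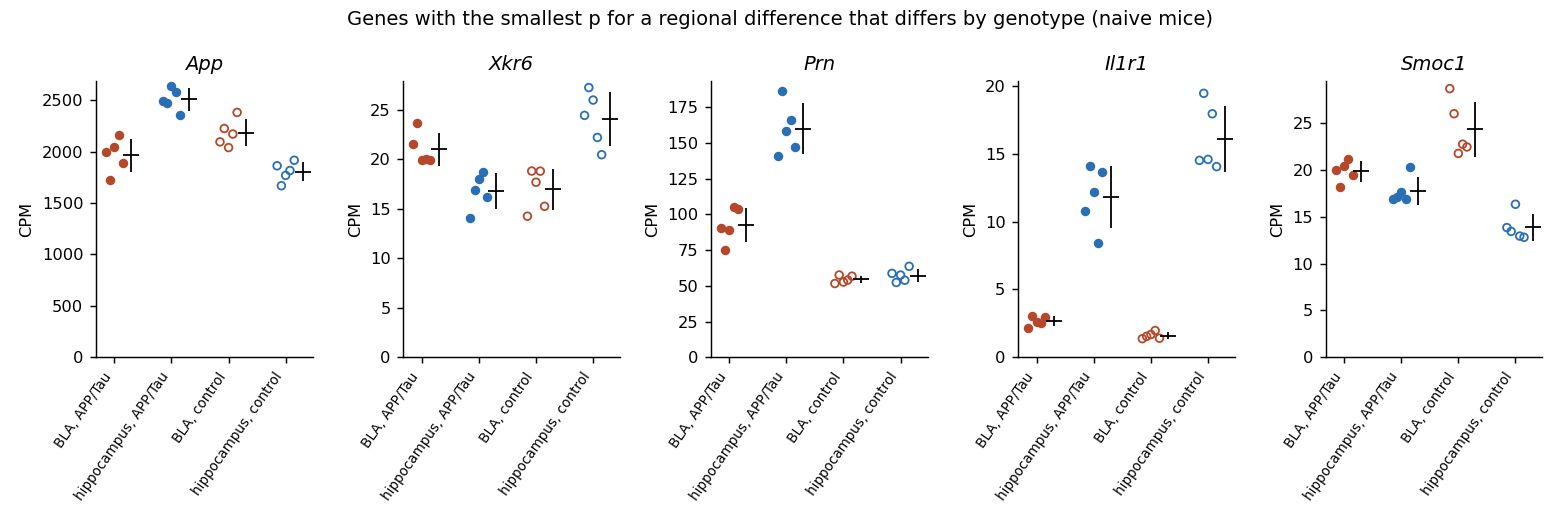
Level (CPM) of the 5 genes with the smallest interaction p in the BLA and hippocampus of naive APP/Tau mice (filled) and naive controls (open). Points are libraries, and bars are the mean ± SD (n = 5 each). For App the BLA lies below the hippocampus in APP/Tau mice and above it in controls.

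The list medians were set beside those of controls. The dentate list had a median of -1.48 in APP/Tau mice and -1.73 in controls, the myelin list -0.89 and -1.10, and the choroid plexus list -3.56 and -3.15. Wider apart, by over 0.6, were 6 lists without App. Reactive astrocytes were at -1.68 in APP/Tau mice (-1.16 without hippocampal replicate 5) and -1.03 in controls. Disease-associated microglia were at -1.06 in APP/Tau mice (-0.62 without that library) and -0.37 in controls. Complement and antigen presentation genes were at -0.86 in APP/Tau mice (-0.29 without it) and -0.24 in controls. The central amygdala and striatal list had 2.70 in APP/Tau mice (2.05 without BLA replicate 2) and 1.76 in controls. BLA projection neuron genes had -0.05 in APP/Tau mice (0.12 without BLA replicate 2) and 0.58 in controls. The 5 blood genes had 0.31 in APP/Tau mice (-0.43 without BLA replicate 2) and -0.45 in controls. None of these lists' members passed the interaction test. Gfap, for example, differed by -2.97 ± 0.73 in APP/Tau mice and -3.03 ± 0.24 in controls (interaction 0.04 ± 0.76, adjusted p = 0.996).

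Trained APP/Tau mice are other animals and give the same measure in libraries that the calls above did not use. Their libraries have the same RNA input, dissection and table per region as the naive ones. A difference due to these would recur in them, so the comparison cannot tell these apart from region. In them 5606 of 23041 genes were called (24.3%), with 4 libraries a region. Of the 9125 genes called in naive APP/Tau mice, 9019 were tested in trained mice, 8922 had the same direction (98.9%) and 4952 were also called in it (54.9%). The share with the same direction over all tested genes was not computed. Of those with a log2 fold change of at least 1, 3009 were tested, 2980 had the same direction (99.0%) and 2141 were called in it (71.2%). Penk, for example, differed by 5.22 ± 0.34 in naive and 5.51 ± 0.51 in trained mice, Prox1 by -2.64 ± 0.14 and -2.72 ± 0.22, and Cdh4 by 2.49 ± 0.09 and 2.28 ± 0.17. Among genes called in naive but not in trained mice was Dcn (-2.67 ± 0.21 and 0.04 ± 0.91, adjusted p = 0.979 in trained mice). Others were Fibcd1 (-3.12 ± 0.25 and -1.15 ± 0.78, adjusted p = 0.311) and Gfap (-2.97 ± 0.73 and -1.72 ± 0.92, adjusted p = 0.201). App was not called in trained mice either (-0.34 ± 0.07 and -0.29 ± 0.13, adjusted p = 0.126). The list medians in naive and trained mice were 2.70 and 2.57 for the central amygdala and striatum, -1.68 and -1.72 for reactive astrocytes, -1.48 and -1.02 for dentate granule cells and -0.49 and -0.01 for immediate early genes.

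No gene of 24744 passed the test of a change of the regional difference between naive and trained APP/Tau mice with edgeR (0%). An unadjusted p under 0.05 was found for 583 genes (2.36%), and DESeq2 called 0. That share is below the 0.05 that no effect at all would give, so the test may be strict here. The lack of calls does not show that the regional difference stays the same after training. The 5 genes with the smallest p, all with an adjusted p of 1, were Osr1 (an odd-skipped transcription factor), Prph (peripherin), Lsm8 and Rrp1b (RNA-processing factors) and Kcnmb2 (a potassium channel subunit). Without BLA naive replicate 2 a single gene was called.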

How the data were processed

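Poly(A) RNA of the input fraction was sequenced from the BLA and hippocampus of 9-month-old mice. The authors deposited raw counts per gene symbol, in 1 table a region. Reads were trimmed with Trimmomatic 0.39, and mm39 is the build named, per the submitters' processing notes. No source used here names an aligner, counter, annotation or strand setting. Genes whose exons overlap others, or that have near-identical copies, are therefore uncertain. Libraries are paired 2 x 50 bp reads, per the labels' protocols.

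All 50559 symbols were read, of which 48908 matched a RefSeq symbol. Low genes were removed with filterByExpr (10 as its count minimum and 15 as its total) and the rest tested on the counts with edgeR 4.0.16 (R 4.3.3) after TMM scaling, by the quasi-likelihood F test with Benjamini-Hochberg adjustment over all tested genes. Every adjusted p in the text is from this test unless another tool is named. The SE of a log2 fold change is its size over the square root of F. The regional difference used 10 libraries, and the interactions 20 and 18. Alternatives were DESeq2 1.42.0, limma-voom (limma 3.58.1), other scalings, filters and gene sets, each library left out, and the mouse number as a block. The scripts recovered known changes in simulated counts with the same dispersion for every gene and no shared mouse effect. How the tests behave with mouse effects or outlying libraries was not simulated.

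The same number in both regions was taken as 1 mouse: 19 of 19 shared numbers had the same genotype and training. Deviations from the regional means correlated at r = 0.286, 0.0398, 0.367, 0.415 and 0.406 for replicates 1 to 5, so replicate 2 did not show the pairing in the data. Its BLA library correlated more with the hippocampus of another mouse (r = 0.214), while the other replicates matched their own number best. Statements per mouse, lines in the figures and block fits still use this pair. The main test has no block. Libraries of a region differed from each other by more than counting noise. Each library number was taken as a separate mouse; otherwise the p-values would measure a spread that may be technical.

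The members and gene lists were chosen with earlier results of these data known. Named were the genes that check the labels, the 10 largest changes in each direction (at least 1 CPM, 5 of 5 mice), up to 3 called members per list and direction with the smallest p, receptor and channel genes, and the 5 smallest p of each interaction; Cartpt, Scg2 and Sst are named for their promoters. Exon overlaps and promoters are from GRCm38 tables. Some named genes are not reported here.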

Additional observations from a re-analysis of the deposited data

Results flagged for a closer look

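Dixon's test on CPM was run on 394 groups of 5 libraries (197 named genes, 2 regions). In 39 of them the highest or lowest library stood far from the other 4. Chance flags about 1 in 20 groups where values are normally spread. Where the other 4 libraries are at 0 CPM, any reads in the remaining library are flagged, whatever their level. That was so for Rtl3, Cldn2, Calml4 and Tmem212. Each value is given with the range of the other 4 libraries of its region, and no cause was tested.

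In BLA replicate 1, P2ry12 was at 31.5 CPM (others 34.4 to 34.9). In BLA replicate 2, Cyp26b1 was at 41.7 CPM (others 219 to 274), Gsg1l was at 136 CPM (others 40.2 to 64.8), Coch was at 24.8 CPM (others 9.34 to 10.8) and Syt5 was at 161 CPM (others 220.0 to 241). Also there, Pcdh9 was at 158 CPM (others 129 to 134) and Ptx3 was at 0.0677 CPM (others 0.137 to 0.162). In BLA replicate 3, Rtl3 was at 0.0392 CPM (others 0 to 0) and Cldn2 was at 0.0784 CPM (others 0 to 0). In BLA replicate 4, Ttr was at 0.544 CPM (others 0 to 0.157), Calml4 was at 0.0340 CPM (others 0 to 0), Lct was at 1.19 CPM (others 0.237 to 0.485) and Plekhg1 was at 8.78 CPM (others 10.5 to 11.2). In BLA replicate 5, Cst7 was at 5.03 CPM (others 0.196 to 0.880), Nfix was at 125 CPM (others 81.0 to 92.8) and Tmem212 was at 0.0162 CPM (others 0 to 0).

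In hippocampal replicate 1, Gabra3 was at 92.6 CPM (others 63.5 to 70.9) and Esr2 was at 0.0652 CPM (others 0.201 to 0.239). In hippocampal replicate 3, Six3 was at 3.19 CPM (others 0.217 to 0.822), Adora2a was at 6.81 CPM (others 0.978 to 2.28), Isl1 was at 0.768 CPM (others 0 to 0.0183) and Calcr was at 0.311 CPM (others 0 to 0.0731). In hippocampal replicate 4, Cspg4 was at 15.6 CPM (others 19.3 to 20.8). In hippocampal replicate 5, Gfap was at 4937 CPM (others 908 to 1600.0), Cst7 was at 20.7 CPM (others 0.402 to 5.82), Gad2 was at 206 CPM (others 168 to 172) and Sstr4 was at 14.6 CPM (others 16.1 to 16.6). Also there, Grm7 was at 40.1 CPM (others 64.1 to 70.1), Fth1 was at 2957 CPM (others 1940.0 to 2160.0), Igf1 was at 18.3 CPM (others 10.0 to 12.1) and P2ry12 was at 65.2 CPM (others 45.8 to 50.2). In the same library, P2ry13 was at 26.0 CPM (others 14.1 to 15.1), C4b was at 485 CPM (others 76.2 to 152), C3 was at 62.8 CPM (others 2.13 to 4.25) and Gbp2 was at 16.04 CPM (others 2.63 to 5.20). There too, Serping1 was at 17.6 CPM (others 5.39 to 8.56), Ptx3 was at 2.12 CPM (others 0.649 to 1.02), Aqp4 was at 524 CPM (others 180.0 to 217) and Smoc1 was at 20.5 CPM (others 17 to 18).

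The regional difference of App was lower in naive APP/Tau mice than in naive controls by -0.627 on the log2 scale. It passed the test of that difference with edgeR (adjusted p = 0.0177). The call was lost in 10 of the 20 fits without 1 library.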

How the results depend on the processing

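The number of regional calls stayed within 1.5 times of 9125 under every alternative, from 7002 (protein-coding genes alone) to 10416, and from 7911 to 9298 over the fits without 1 library. With a log2 fold change of at least 1, the count was 1737 for genes with a mean of at least 1 CPM and 1691 for protein-coding genes alone (chosen after seeing the data), against 3115. Of 342 named genes, 272 were called, 245 of them in every alternative that gave a value, and none reversed. The block took the calls of Kcnip1, Kcnma1, Scn4b, Bace1 and ND1.

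The interaction with controls gave 1 gene, App, and 48 with DESeq2, 2 without a filter, 3 with a mean of at least 1 CPM, 3 for protein-coding genes, 3 with the replicate block, 0 with all 39 libraries in the fit and 0 to 4 without 1 library. App kept its direction in all of these. The interaction with trained mice gave 0, also with the replicate block, and 0 to 1 without 1 library (1 without BLA replicate 2). The causes were not tested. Depth, RNA input, dissection and table go with region and cannot be told apart from it.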
